A study of Mus musculus with 8 samples.

Results

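Macrophages from mice in which an inducible Cre recombinase can delete both copies of Thoc5 were compared with and without tamoxifen, the drug that switches the recombinase on. The comparison holds 4 of the 8 dual-colour arrays of the study, chosen by the genotype and treatment that the labels give. The first group is the ERT2 Cre Thoc5 (flox/flox) cells with tamoxifen, with 2 arrays, and its reference is the ERT2 Cre Thoc5 (flox/flox) cells with no tamoxifen, also with 2 arrays. The other 4 arrays hold ERT2 Cre cells without floxed alleles, 2 with tamoxifen and 2 without, and serve as controls for the drug and the recombinase. All mice carried the Cre and were of the C57BL/6 x B6:129 Ola background. Their ages, the promoter of the Cre and the tamoxifen dose are not given in the sources used here. Each array set cytoplasmic RNA of bone marrow derived macrophages after 3 days in CSF-1, a cytokine on which macrophages depend, against RNA taken from cells of that genotype at day 0. The 2 arrays of a group came from 2 biological experiments, the second with the dyes swapped, and both arrays of a genotype and experiment used 1 day 0 RNA.

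Thoc5 encodes a subunit of the THO complex. THO joins an RNA helicase and an adaptor protein in the TREX assembly, which is loaded on nascent transcripts and helps hand finished mRNA to the export receptor at the nuclear pore. The Thoc5 protein is also known as a substrate of the CSF-1 receptor kinase. Macrophages made from bone marrow under CSF-1 build up a large lysosomal compartment, take up particles and lipid, and carry surface receptors that differ from those of the monocytes they come from.

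The unit throughout is the log2 ratio of day 3 over day 0 on an array, and a change is the mean ratio of flox cells with tamoxifen minus that of flox cells without it, with the standard error (SE) of a limma fit and 2 arrays a group. Genes are said to rise or fall, or to be called, where the Benjamini-Hochberg adjusted p of limma over all 17943 genes tested was under 0.05. In the channels of the 4 flox arrays 51.2% to 57.6% of probes were well above background, and 0 spots were saturated. The log2 ratios correlated across genes at r = 0.92 between the arrays with tamoxifen and at r = 0.93 between those without it; genes are not independent replicates. Markers of stromal cells were higher on the array with tamoxifen of experiment 2 than on the other flox arrays, and the counts without that array are given beside the results. The label of macrophages was checked against the genes that define them. Csf1r, the CSF-1 receptor gene, had log2 intensities in the day 3 channel of 17.82 and 17.45 with tamoxifen, against 17.79 and 17.53 without it. Adgre1, a surface receptor gene of mature macrophages, stood at 17.78 and 17.75 with tamoxifen, against 17.84 and 17.95 without it, and neither gene passed the test. The number of arrays limits the precision of every value. Where groups are said not to overlap, each holds 2 arrays, and most such genes were picked for their called change. Non-overlap is then a description and adds no support, and its share over all genes is not given here. As the RNA is cytoplasmic and from whole cultures, a lower total and a lower export of an mRNA cannot be told apart, and neither can fewer cells of a type and less RNA per cell. The labels say that the experiments are biological replicates.

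Thoc5 RNA fell by 2.27 ± 0.10 on the log2 scale with tamoxifen, and no other measured subunit of the complex passed the test. On the mm9 build the probe for Thoc5 spans bases 4828807 to 4828866 of chromosome 11, and whether these are among the floxed exons is not given in the sources used here. Its log2 ratios were -3.04 and -3.02 in flox cells with tamoxifen, against -0.74 and -0.77 in flox cells without it. The groups did not overlap. Thoc5 was 4.83-fold lower (95% interval of the change -2.51 to -2.04, limma adjusted p = 0.000724). In the day 3 channel alone its log2 intensity was 9.56 and 9.56 with tamoxifen, against 11.87 and 11.67 without it, still well above background on all 4 arrays. In control cells the ratios were -0.21 and -0.15 with tamoxifen, against -0.40 and -0.28 without it.

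The other THO subunits, the scaffold and partner proteins of Thoc5, all had a change below 0 that did not pass the test. Thoc1 had a change of -0.33 ± 0.11 (limma adjusted p = 0.111), with ratios of -0.20 and -0.20 with tamoxifen, against 0.03 and 0.23 without it, so its groups did not overlap. The groups of Thoc2 (-0.10 ± 0.14), Thoc3 (-0.15 ± 0.17), Thoc6 (-0.24 ± 0.17) and Thoc7 (-0.12 ± 0.13) overlapped. Of 25 measured factors of mRNA export, among them helicases, adaptors and pore proteins, 0 were called by limma in the ratios, and their median change was -0.06, against -0.01 over all genes. The factors with the smallest p were Ddx39b, the TREX helicase gene, at 0.39 ± 0.13, and Ncbp2, which encodes a cap-binding subunit, at -0.38 ± 0.14. Both passed in the day 3 channel alone, with limma adjusted p = 0.0407 for Ddx39b and 0.0476 for Ncbp2, where 13.2% of all genes passed. Further probes of Ddx39b stood at 0.21 and -0.07.

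**Figure D1:**
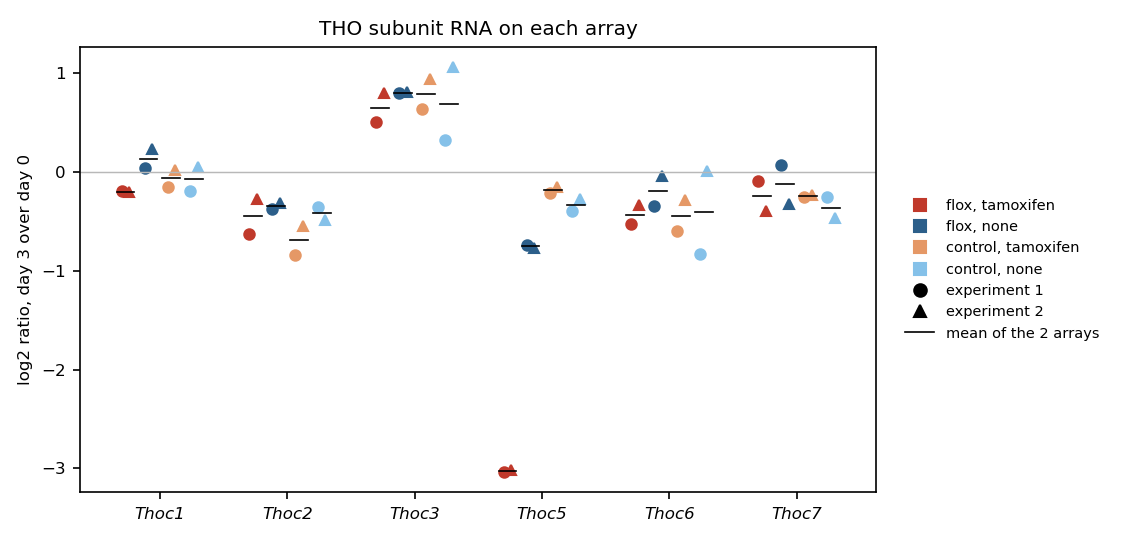
Log2 ratio of day 3 over day 0 for the 6 measured THO subunit genes on each of the 8 arrays, with the mean of the 2 arrays of a group as a bar. Thoc5 in flox cells with tamoxifen, at -3.04 and -3.02, lies apart from every other point.

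Tamoxifen changed the RNA of 1616 genes in flox cells, which is 9.01% of those tested. Of these 870 rose (4.85%) and 746 fell (4.16%), with median changes of 0.77 and -0.77. Changes of at least 2-fold were called for 474 genes (2.64%), 240 higher (1.34%) and 234 lower (1.3%), and 22 genes rose and 24 fell by at least 4-fold. All 1616 changed in the same direction in both experiments, which a call on the mean of the 2 changes all but requires. Across all genes the changes of the experiments correlated at r = 0.81. The median change of all genes was -0.01.

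The array layout gives a measure of technical spread, since the day 0 channels of both flox arrays of an experiment hold the same RNA. Over all genes the SD of the difference between the array with and the array without tamoxifen was 0.431 in experiment 1 and 0.447 in experiment 2 in the day 3 channel. In the day 0 channel it was 0.139 and 0.157. Differences of at least 2-fold were found for 675 and 758 genes in the day 3 channel, against 48 and 34 genes in the day 0 channel. Among the 1616 called genes the median size of the change was 0.786 in the day 3 channel and 0.049 in the day 0 channel. For 8 of them the day 0 difference was the larger. The calls were made on ratios from the same spots, so these values are in part set by the choice of genes. The SDs over all genes are not. The day 3 channel on its own called 2376 genes (13.2%), 1258 higher (7.01%) and 1118 lower (6.23%). It shares its spots with the ratios and is no independent test. The ratio and the day 3 channel called 1438 genes in the same direction, which is 89% of the ratio calls and 60.5% of the day 3 calls, and of the 474 genes with a 2-fold change 469 were called in both.

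The calls depend on having all 4 flox arrays. Without the array with tamoxifen of experiment 1 or 2, or the array without tamoxifen of experiment 1 or 2, 364, 216, 278 and 208 of the 1616 genes were called again in the same direction. These 4 fits, in this order, are the leave-one-out fits below. In all of them together 145 genes were called, and 1105 were called in none. A further probe of the same gene, present for 382 called genes, had the opposite sign for 29 of them, 9 at an unadjusted p under 0.05.

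**Figure D2:**
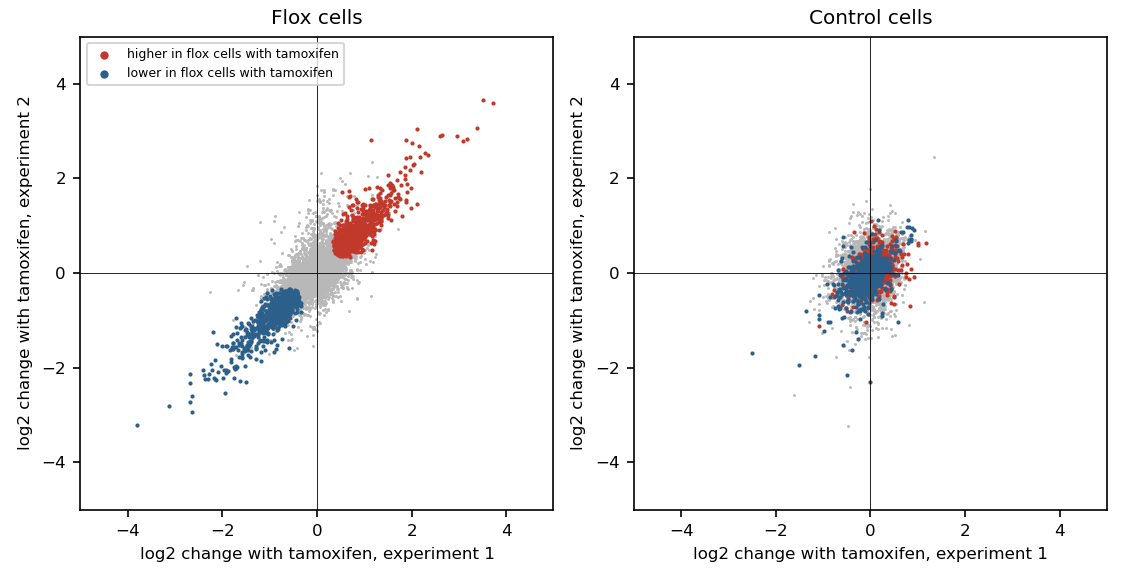
Log2 change with tamoxifen in experiment 1 (x axis) and experiment 2 (y axis) for every gene, in flox cells on the left and in control cells on the right, with the genes called in flox cells in colour. In flox cells the coloured genes lie along the diagonal, which follows in part from choosing them by their change there. In control cells the same genes form a cloud about 0. Over all genes r was 0.81 in flox cells and 0.18 in control cells.

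The gene raised most by tamoxifen in flox cells was Mcoln3, which encodes a cation channel of endosomes and lysosomes. Its ratios were 1.53 and 2.29 with tamoxifen, against -2.18 and -1.30 without it, a rise of 12.6-fold (3.65 ± 0.17, limma adjusted p = 0.000724). Its RNA thus stood above its day 0 level with tamoxifen and below that level without it. A further probe of Mcoln3 gave 2.15. H2-M2, a non-classical class I gene of the MHC, had ratios of 3.64 and 3.44 with tamoxifen, against 0.27 and 0.38 without it (9.33-fold higher). Cd83, a surface protein of activated antigen-presenting cells, had 2.61 and 2.61 with tamoxifen, against -0.36 and -0.29 without it (7.63-fold higher, 2.93 ± 0.16, limma adjusted p = 0.00115).

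Il7r, the receptor gene for interleukin 7, had ratios of 0.73 and 1.17 with tamoxifen, against -1.87 and -1.73 without it (6.73-fold higher). Atp6v0d2, a proton pump subunit found in osteoclasts and macrophages, had 3.32 and 3.56, against 1.20 and 0.50 without tamoxifen, so it stood above day 0 in both groups and higher with the drug (6.00-fold). Egr2, a zinc finger transcription factor gene, had 2.49 and 2.31 with tamoxifen, against 0.33 and -0.38 without it (5.37-fold higher). In none of these genes, which were picked by the size of their called change, did the arrays of the groups overlap. Gpr162, an orphan receptor gene, Pianp, Oit3, and Fam20c, a secretory pathway kinase gene, had rises within 2.34 to 2.94. So did Fabp4, a fatty acid binding protein gene, and Mmp12, which encodes an elastase of macrophages. The day 0 channels of Gpr162, which hold the same RNA, differed by 1.33 and 1.11 in the 2 experiments. Its change in the day 3 channel was 4.16. Further probes gave 1.05 for Mmp12 and 1.83 for Fam20c.

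The gene lowered most was Id1, a helix-loop-helix protein that keeps other transcription factors from binding DNA. Its ratios were -4.18 and -1.83 with tamoxifen, against -0.38 and 1.39 without it. The groups did not overlap, and the change was -3.80 in experiment 1 and -3.22 in experiment 2. The change of -3.51 ± 0.63 (11.4-fold lower, limma adjusted p = 0.0239) lost its call in each leave-one-out fit. As for every gene, its SE comes from the spread over all 8 arrays, and in control cells Id1 changed by 0.57 and -1.04. Its day 3 channel stood at 9.67 and 10.50 with tamoxifen, against 13.59 and 13.58 without it. Ccl12, a chemokine that attracts monocytes, had ratios of -2.49 and -2.47 with tamoxifen, against 0.64 and 0.34 without it (7.82-fold lower). Raver2, an RNA-binding protein gene, had 0.56 and 0.52 with tamoxifen, against 3.24 and 3.24 without it (6.50-fold lower, -2.70 ± 0.14). Its day 0 channels, which hold the same RNA, differed by -0.90 and -0.89, and its change in the day 3 channel was -3.60.

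Nrxn2, a neurexin gene, had ratios of 0.00 and 0.11 with tamoxifen, against 2.63 and 3.04 without it (6.90-fold lower), and a further probe gave -0.94. Il2ra, the alpha chain of the interleukin 2 receptor, was not well above background in either array with tamoxifen and was at least 4.36-fold lower than without it, a bound that sets the dim arrays at the lowest signal well above background. Cd209f, a C-type lectin gene, Ch25h, which makes 25-hydroxycholesterol, Smad6, Dmwd, Klra2 and Mtus1 changed by -2.51 to -2.20. In control cells Il2ra changed by -1.11 and Ch25h by -1.16, with no call. Of the 30 genes with the largest changes, 24, 21, 25 and 23 kept their call in the leave-one-out fits. Those called in only some of these fits, or in none, were Smad6, Mmp12, Dmwd, Gpr162, Ch25h, Oit3, Id1, Il7r and Ccl12.

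**Figure D3:**
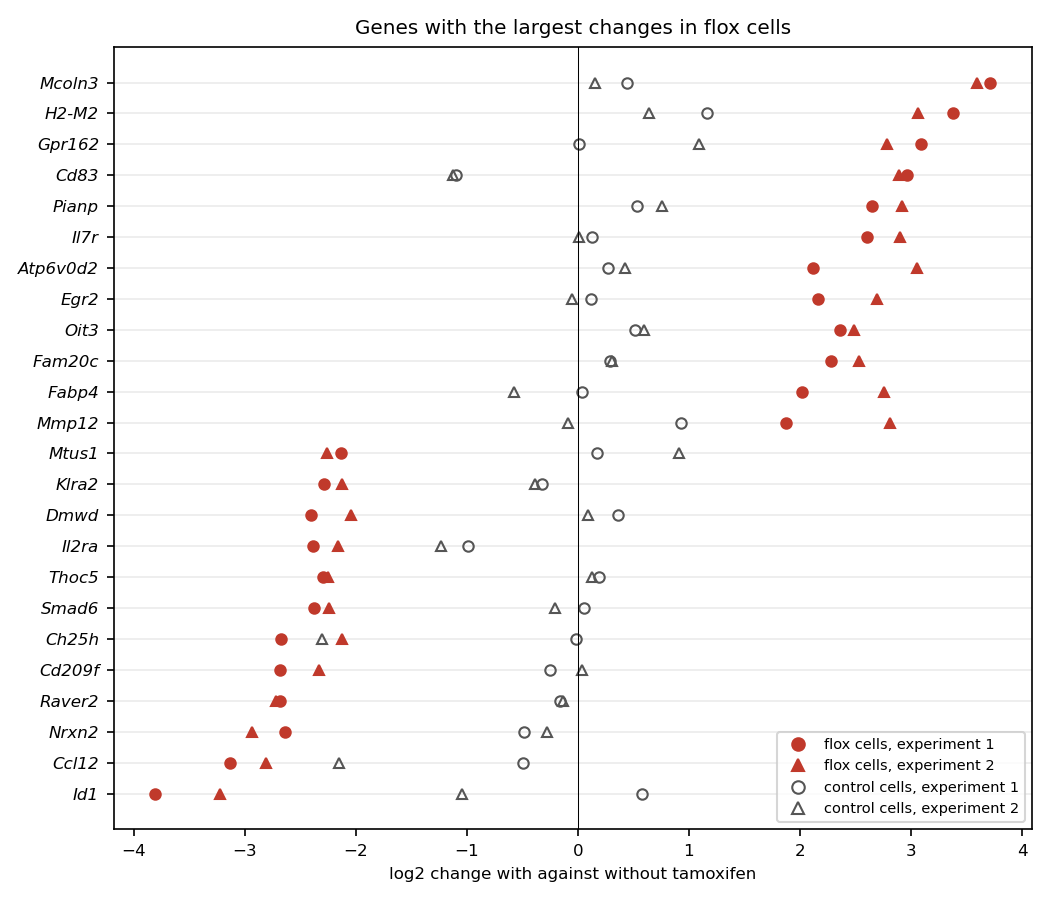
Log2 change with against without tamoxifen in each experiment, for the named genes with the largest changes, in flox cells (filled) and control cells (open). Mcoln3 is raised most (3.65) and Id1 lowered most (-3.51) in flox cells; Cd83 lies below 0 in control cells (-1.11, not called).

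Many lysosomal genes rose with tamoxifen in flox cells. Of 86 measured genes in 4 lists, 30 rose and 1 fell, against 4.85% and 4.16% of all genes. These shares of all genes are to be set beside every list count below, and a count near them is no result about the list. Among 7 mucolipins and MiT/TFE transcription factors 4 rose, with a median of 0.63: besides Mcoln3 these were Mcoln2 (1.43 ± 0.16), Mcoln1 (0.77 ± 0.12) and Mitf (0.63 ± 0.10), a factor of the family that drives lysosomal genes. Mcoln1, the lysosomal channel gene mutated in mucolipidosis, had ratios of 0.18 and 0.57 with tamoxifen, against -0.59 and -0.19 without it. Mcoln2 had -0.29 and 0.23 with tamoxifen, against -1.64 and -1.29 without it. The groups of both genes were apart, by a smaller margin than for Mcoln3. Tfec (0.53 ± 0.19), Tfeb (0.44 ± 0.18) and Tfe3 (limma adjusted p = 0.993) did not pass.

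Of 17 cathepsins and cystatins 9 rose and 1 fell, with a median of 0.51. Ctsk, a collagen-degrading protease of osteoclasts, had ratios of 0.17 and 0.49 with tamoxifen, against -1.69 and -1.74 without it (4.14-fold higher, 2.05 ± 0.22, limma adjusted p = 0.00638). Ctsd, an aspartic protease, had -0.07 and 0.13 with tamoxifen, against -1.24 and -0.84 without it. In both the groups did not overlap: without tamoxifen their RNA was below its day 0 level on both arrays, and with it near or above that level. Ctsb, a cysteine protease, rose by 1.06 ± 0.10 in the ratios and by 0.56 in the day 3 channel, and Cstb, a cysteine protease inhibitor, by 1.01 ± 0.12. The proton pump that acidifies the lysosome had 7 of 19 genes higher and 0 lower, with a median of 0.34. Behind Atp6v0d2 these included the catalytic subunit Atp6v1a (0.97 ± 0.12), Atp6v1c1 (0.74 ± 0.10) and Atp6v1g2 (0.52 ± 0.11).

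Of 43 lysosomal hydrolases and membrane proteins 10 rose and 0 fell, with a median of 0.36, and 37 of 43 had a change above 0. Naglu, a heparan sulfate degrading enzyme, had ratios of 0.91 and 0.86 with tamoxifen, against -0.23 and -0.25 without it (1.13 ± 0.15). Arsb, a sulfatase, rose by 1.12 ± 0.10, although a further probe gave 0.21, and Cd63, a tetraspanin of late endosomes, by 1.05 ± 0.12. In control cells the medians of these 4 lists lay between 0.00 and 0.03. Of the 31 calls 8, 6, 7 and 5 were kept in the leave-one-out fits. Mcoln3, Atp6v0d2, Ctsk and Arsb were called in all of them, while the list medians stayed above 0, at 0.29 to 0.73.

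The E-box TCACGTG is part of the motif that MiT/TFE factors are known to bind, so the promoters of the raised lysosomal genes were read for it. RefSeq windows (GRCm38.p6) of 250 bases before to 50 after a start site were searched on both strands, where a copy on the other strand reads CACGTGA and 1 site can match on both. Of 24 raised lysosomal genes with a window 6 held it (25%), as did 16 of the 67 measured lysosomal genes with a window (23.9%). Among all tested genes 728 of 11018 held it (6.61%), among the genes raised by tamoxifen 58 of 631 (9.19%) and among those lowered 28 of 477 (5.87%). The share of raised lysosomal genes that held it was thus close to that of all measured lysosomal genes. GCGGGGGCG, a site of EGR factors, was searched because Egr2 rose, and was present in 39 of 631 raised genes (6.18%), against 655 of 11018 tested genes (5.94%). A match is a description of the letters in the window.
The stretches with the E-box upstream of the start sites are shown for 5 of the 6 raised lysosomal genes that held it. That of Ctsd, with 2 sites, is not shown. The stretches read 5′ to 3′ on the gene's strand, with each match in capitals. Mcoln1 is at chr8:3500427-3500500, plus strand, Lamp1, a major lysosomal membrane protein that rose by 0.55, at chr8:13159079-13159160, plus strand, and Naglu at chr11:101070000-101070046, plus strand. Atp6v1a is at chr16:44139364-44139411, minus strand, and Ctsa, a serine carboxypeptidase that rose by 0.79, at chr2:164833740-164833772, plus strand.
Mcoln1: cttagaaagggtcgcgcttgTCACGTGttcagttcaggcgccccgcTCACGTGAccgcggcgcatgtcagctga
Lamp1: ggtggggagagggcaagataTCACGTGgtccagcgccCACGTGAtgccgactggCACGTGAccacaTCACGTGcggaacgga
Naglu: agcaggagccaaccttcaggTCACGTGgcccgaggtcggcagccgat
Atp6v1a: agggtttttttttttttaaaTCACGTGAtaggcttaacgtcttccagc
Ctsa: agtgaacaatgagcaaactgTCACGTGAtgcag
Lamp1 held 4 sites in its stretch and Mcoln1 held 2, while Naglu, Atp6v1a and Ctsa held 1 each.

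Of 29 genes of osteoclasts and of cell fusion 10 rose (34.5%) and 2 fell (6.9%), with a median of 0.30. Among all genes 4.85% rose and 4.16% fell. Several of them are lysosomal genes as well, such as Ctsk and Atp6v0d2. Gpnmb, a membrane glycoprotein of lipid-laden macrophages, had ratios of 0.65 and 0.47 with tamoxifen, against -1.23 and -1.07 without it (3.26-fold higher). Acp5, the tartrate-resistant acid phosphatase by which osteoclasts are stained, went the other way, with 0.09 and -0.09 with tamoxifen, against 1.62 and 1.26 without it (2.71-fold lower, -1.44 ± 0.13, limma adjusted p = 0.00410). Its 2 probes agreed in direction. Of 22 matrix metalloproteinases and their inhibitors 6 rose and 0 fell, with a median of 0.44, among them Mmp14 (0.85 ± 0.11), Timp2 (0.82 ± 0.11), Mmp11 (0.76 ± 0.15) and the collagenase gene Mmp8 (0.72 ± 0.12). Their median was 0.24 in experiment 1 and 0.66 in experiment 2, in which stromal markers were also higher, as given below. Of the 16 calls of both lists 5, 6, 7 and 4 were kept in the leave-one-out fits, with Ctsk, Atp6v0d2, Gpnmb and Acp5 in all of them.

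More genes of fatty acid handling rose than fell, while more genes of cholesterol synthesis fell than rose. Of 25 genes of PPAR-gamma and fatty acid handling 6 rose and 1 fell, with a median of 0.36. Pparg, the nuclear receptor gene itself, had ratios of 0.36 and 0.66 with tamoxifen, against -0.45 and -0.31 without it (0.89 ± 0.10, limma adjusted p = 0.00646). Fabp4, one of its known targets, had 0.42 and 0.97, against -1.60 and -1.78 without tamoxifen, and Fabp5 (1.25 ± 0.17) and Fabp3 (0.96 ± 0.12) rose with it. In each of these genes the change was above 0 in both experiments.

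Of 24 cholesterol synthesis genes 6 fell and 1 rose, with a median of -0.38. Sqle, the squalene epoxidase gene, had ratios of -0.74 and -0.46 with tamoxifen, against 0.31 and 0.63 without it (-1.07 ± 0.11). Idi1 (-0.95 ± 0.10), Cyp51 (-0.85 ± 0.09) and Fdps (-0.78 ± 0.12), further enzymes of the pathway, fell with it. Of 14 fatty acid synthesis genes 1 fell (7.14%), Fads2 (-0.60 ± 0.13, with a further probe at -0.32), and 0 rose. Among 20 targets of LXR and efflux genes 2 rose and 2 fell: Npc1 and Npc2, which carry cholesterol out of the lysosome, rose by 0.68 ± 0.16 and 0.68 ± 0.12, and Apoc1 changed by -1.16 ± 0.22 beside Ch25h. Of the 19 calls of these 4 lists 5, 3, 3 and 1 were kept in the leave-one-out fits, Fabp4 in all of them.

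ID genes and inhibitory SMAD genes are known to be switched on by BMP and TGF-beta signals, and the SMADs then hold those signals back. Among 6 ID and inhibitory SMAD genes 4 fell, with a median of -1.84. Id3 had ratios of -1.58 and -0.90 with tamoxifen, against 0.46 and 1.07 without it (4.01-fold lower). Smad6, which blocks BMP receptors, had -2.19 and -1.19 with tamoxifen, against 0.19 and 1.05 without it (4.95-fold lower). Smad7, its TGF-beta counterpart, had -1.44 and -0.78 with tamoxifen, against 0.35 and 0.78 without it (3.20-fold lower).

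For these genes, as for Id1, the ratios were higher in experiment 2 than in experiment 1 in both groups, and the groups did not overlap. Id2 (-0.63 ± 0.44) and Id4 (0.38 ± 0.32) did not pass. In the leave-one-out fits Id3 and Smad7 lost their calls in all 4 fits and Smad6 in 3, and the list median ranged from -2.26 to -1.42. In the day 3 channel the same 4 genes were called, Id3 by -2.20 and Smad7 by -1.62. Of 19 receptors and signal carriers of the pathway 1 fell, Smad3 (-0.91 ± 0.13, with a further probe at -0.06), 1 rose, the co-receptor gene Eng (0.47 ± 0.11), and the median was 0.05.

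Of 4 measured EGR and NAB genes Egr2 alone was called. Egr1, its close relative, had ratios of 0.45 and 0.21 with tamoxifen, against 0.36 and 0.27 without it, so its groups overlapped (0.02 ± 0.21). Nab1 (-0.16 ± 0.15) and Nab2 (-0.10 ± 0.15), which encode corepressors that bind EGR factors, did not pass. Of 17 AP-1 and related genes 1 rose (5.88%) and 2 fell (11.8%), the lowered ones being Batf3 (-1.02 ± 0.15) and Jdp2 (-0.69 ± 0.13).

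Of 18 feedback genes of the ERK pathway, which CSF-1 activates, 1 rose and 1 fell (5.56% each). These counts lie near the shares of all genes, 4.85% and 4.16%. Etv5, an ETS factor gene, had ratios of -1.40 and -0.82 with tamoxifen, against 0.28 and 0.60 without it (2.93-fold lower). Dusp6, a phosphatase that switches ERK off, had -0.59 and 0.09 with tamoxifen, against -1.25 and -0.60 without it. Its groups all but met between experiments, and it rose in both (0.67 ± 0.12, limma adjusted p = 0.0239). In the day 3 channel its limma adjusted p was 0.0955. Of the 12 calls of the ID, BMP, EGR, AP-1 and ERK lists 3, 1, 3 and 2 were kept in the leave-one-out fits, Egr2 in all of them.

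**Figure D4:**
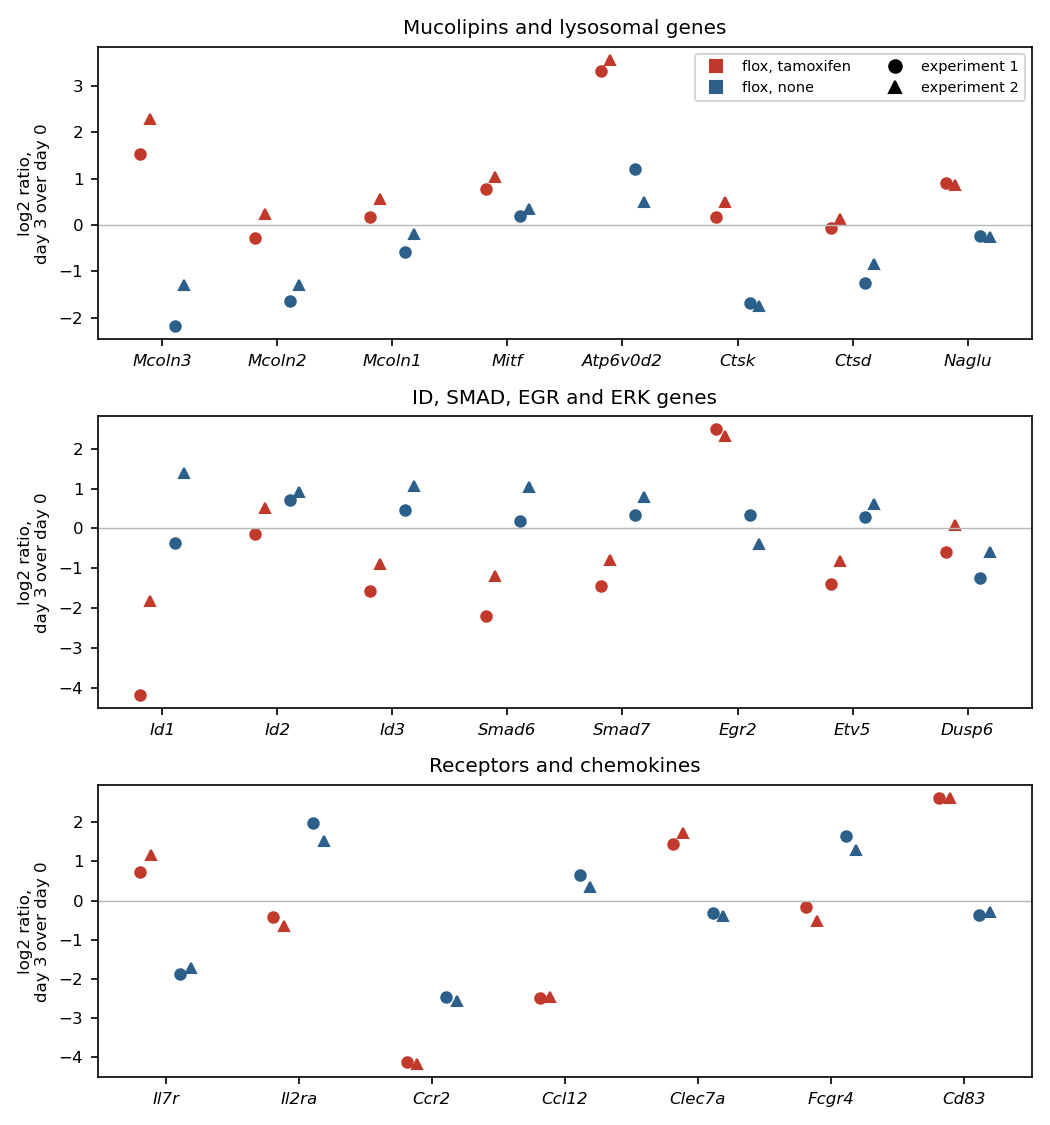
Log2 ratios of day 3 over day 0 on the 4 flox arrays for selected genes of 3 themes, cells with tamoxifen to the left of cells without it. Points of the same shape come from the same experiment. Id1 with tamoxifen has the lowest value in its panel (-4.18).

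Receptors of cytokines and myeloid transcription factors changed in both directions. Of 31 receptors of growth factors and cytokines 5 rose and 4 fell, with a median of 0.05. Beside Il7r and Il2ra, Il21r, an interleukin 21 receptor gene, fell by 1.32 ± 0.19 on the log2 scale. Il1rap, a co-receptor for interleukin 1, changed by -0.77 ± 0.11, but a further probe gave 0.37. Of 28 myeloid transcription factors 3 rose and 4 fell. Klf2, a factor known to restrain monocyte activation, had ratios of -1.37 and -1.32 with tamoxifen, against 0.34 and 0.26 without it (3.12-fold lower, -1.64 ± 0.15, limma adjusted p = 0.00410). Spic, a factor of red pulp macrophages, changed by -1.41 ± 0.24, and by -1.08 in control cells, and Bhlhe41 rose by 0.62 ± 0.11, with a further probe at 0.28. Of the 16 calls 4, 2, 5 and 2 were kept in the leave-one-out fits, Il2ra and Klf2 in all of them.

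Of 17 CC chemokine genes and receptors 4 fell and 1 rose, with a median of -0.38, but the median in control cells was -0.37 as well. Ccr2, the receptor by which monocytes leave the marrow, had ratios of -4.13 and -4.18 with tamoxifen, against -2.47 and -2.55 without it (3.13-fold lower, -1.64 ± 0.14, limma adjusted p = 0.00376). It thus stood below day 0 in both groups and lower with tamoxifen. In control cells Ccr2 changed by -0.64 and Ccl12 by -1.32, with no call. Ccrl2, an atypical receptor, rose by 1.38 ± 0.18. Of 30 inflammatory cytokines and CXC chemokines 4 rose and 4 fell. Ltb, the lymphotoxin beta gene, had 0.10 and -0.19 with tamoxifen, against 1.86 and 1.79 without it (3.66-fold lower), and Il6 (-1.15 ± 0.11) and Il10 (-1.05 ± 0.10) fell beside it. Tnfaip3, an inhibitor of NF-kappa-B, rose by 1.01 ± 0.11. Of the 13 calls 10, 5, 6 and 9 were kept in the leave-one-out fits, and Ccr2, Ltb, Il6 and Il10 were among those kept in all of them.

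Genes by which monocytes and tissue macrophages are told apart changed in both directions. Of 23 monocyte genes 4 rose and 6 fell, and of 28 genes of tissue macrophages 6 rose and 9 fell, with medians of -0.15 and -0.11. Itgal, an integrin chain of circulating leukocytes, had ratios of 0.14 and -0.06 with tamoxifen, against 1.69 and 1.54 without it (2.98-fold lower). F13a1, the coagulation factor gene of monocytes, had -3.83 and -4.74 with tamoxifen, against -2.18 and -2.97 without it (3.26-fold lower). Clec4e, a pattern receptor for mycobacterial lipid, rose by 1.23 ± 0.15.

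Fcrls, an Fc receptor-like gene of resident macrophages, had ratios of 0.76 and -0.24 with tamoxifen, against 2.51 and 1.98 without it (3.96-fold lower). Fcgr4, an activating Fc receptor gene, had -0.16 and -0.53 with tamoxifen, against 1.65 and 1.29 without it (3.51-fold lower). Both stood above day 0 without tamoxifen, and with it only Fcrls in experiment 1 did. Of 31 lectins and scavenger receptors 4 rose and 3 fell. Clec7a, the beta-glucan receptor dectin-1, had 1.43 and 1.73 with tamoxifen, against -0.31 and -0.40 without it (3.83-fold higher), and Mfge8, a bridge to dying cells, had 1.08 and 1.80, against -0.43 and -0.28 without it (3.47-fold higher). Of the 28 calls of these lists 11, 9, 15 and 9 were kept in the leave-one-out fits, with Ccr2, Cd209f, Clec7a, F13a1, Fcgr4, Fcrls, Gpnmb and Itgal in all of them.

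Of 22 complement genes 1 rose (4.55%) and 3 fell (13.6%). Of 24 Fc and Toll-like receptors 0 rose and 2 fell (8.33%). Among 13 MS4A and TMEM176 membrane proteins 1 rose (7.69%) and 3 fell (23.1%). Itgax, the CD11c gene, rose by 1.40 ± 0.22, while Itgam, the CD11b gene, fell by 0.86 ± 0.15, with further probes at -0.37 and -0.96. Cfb, complement factor B, changed by -1.52 ± 0.19 and Cd55, which protects cells from complement, by -1.24 ± 0.25. Fcgr1 changed by -0.86 ± 0.11, Tmem176a by -1.25 ± 0.14 and Tmem176b by -0.63 ± 0.11. Ms4a4b fell by 0.89 ± 0.16 and Ms4a7 rose by 0.96 ± 0.15. Of these 10 calls 5, 4, 3 and 2 were kept in the leave-one-out fits, with Fcgr4 in all of them.

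Of 21 genes of the class I pathway 6 rose and 0 fell, with a median of 0.23: after H2-M2 these included H2-Q7 (0.86 ± 0.15), H2-Q6 (0.70 ± 0.12) and H2-D1 (0.70 ± 0.12), close relatives whose probes may share signal. Of 13 class II genes 1 rose, the protease gene Ctss (0.89 ± 0.21), and 0 fell. Of 13 costimulatory ligands Cd83 rose, and Cd86 (-1.43 ± 0.25) and Icosl (-1.06 ± 0.17), which signal to T cells, fell.

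Of 38 interferon-stimulated genes 7 fell and 0 rose, with a median of -0.49. Isg15, a ubiquitin-like modifier, had ratios of -0.04 and -0.42 with tamoxifen, against 0.69 and 0.49 without it, and Isg20 (-1.02 ± 0.11), Rtp4 (-1.06 ± 0.20) and Igtp (-0.66 ± 0.13) fell beside it. The control cells had a median of -0.24 for the same list, with no call. The flox median ranged from -0.70 to -0.12 in the leave-one-out fits. Of the 17 calls in these lists 3, 3, 5 and 2 were kept, with Cd83 and H2-M2 in all 4 fits.

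Of 36 mitosis and kinetochore genes 8 fell and 0 rose, with a median of -0.25. Ube2c, which loads ubiquitin for the anaphase-promoting complex, had ratios of -1.48 and -1.27 with tamoxifen, against -0.26 and -0.22 without it (2.20-fold lower, -1.14 ± 0.10, limma adjusted p = 0.00410). Cdc20, the activator of that complex, had -2.31 and -2.03 with tamoxifen, against -1.14 and -1.06 without it (2.09-fold lower). Ccnb2 (-1.01 ± 0.13) and Aurka (-0.62 ± 0.10), a cyclin and a kinase of mitosis, fell as well. The groups did not overlap in any of these genes, which were named for their small p.

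Of 40 DNA replication genes 5 rose and 0 fell, with a median of 0.17, and the control cells had a median of 0.20. Lig1 (0.64 ± 0.11), Rrm2 (0.91 ± 0.19), Prim2 (0.81 ± 0.17) and Rfc2 (0.44 ± 0.09) were among them. None of the 40 was called for the difference between genotypes. The leave-one-out fits called 0, 0, 2 and 0 replication genes higher, and the list median was -0.04 without the array without tamoxifen of experiment 2. With Agilent's processed signals 1 replication gene was called higher. Of the mitosis genes 1, 2, 1 and 2 were called lower in the leave-one-out fits, with Ube2c in all of them.

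Of 31 genes of ribosome biogenesis and MYC 5 fell and 0 rose, with a median of -0.47, among them Polr1a (-0.78 ± 0.13), Srm (-0.80 ± 0.14), Nolc1 (-0.74 ± 0.15) and Utp4 (-0.67 ± 0.12). Of 26 targets of p53 1 rose (3.85%) and 2 fell (7.69%), with a median of -0.02. Among all genes 4.85% rose and 4.16% fell. Cdkn1a, the cell cycle inhibitor p21, fell by 0.56 ± 0.12 and Aen by 0.59 ± 0.11 on the log2 scale, and Plk2 rose by 1.44 ± 0.22. Of 16 BCL2 family genes 1 fell (6.25%), Bcl2a1d (-1.33 ± 0.24), a survival gene with near-identical copies. Of 25 genes of ATF4 and amino acid stress 2 fell (8%), Psat1 (-0.74 ± 0.17) and Aars (-0.46 ± 0.11), and 0 rose. Of the 11 calls in these 4 lists 1, 2, 0 and 0 were kept in the leave-one-out fits, so none of them stood in all 4, though the ribosome list's median ranged from -0.70 to -0.37.

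Iron handling genes changed in both directions, with 6 of 22 higher and 3 lower. Ncoa4, which delivers ferritin to the lysosome, had ratios of 1.17 and 0.96 with tamoxifen, against -0.07 and -0.28 without it (1.24 ± 0.15), and Flvcr1, a heme exporter, rose by 1.01 ± 0.14 and Slc11a2, an iron transporter, by 0.75 ± 0.11, with a further probe of Slc11a2 at 0.31. Cp, the ferroxidase ceruloplasmin, had 1.65 and 0.66 with tamoxifen, against 3.18 and 2.61 without it (3.34-fold lower), and a further probe gave -0.63. Of 17 integrins 2 rose and 4 fell, such as Itgb7 (0.98 ± 0.11), Itga6 (-0.81 ± 0.10) and Itga9 (-1.26 ± 0.18). Of 28 genes of hypoxia and glycolysis 4 fell and 1 rose, with Ndrg1 (-1.54 ± 0.23), the hexokinase gene Hk2 (-1.18 ± 0.16), Vegfa (-0.94 ± 0.17) and Higd1a (-0.51 ± 0.10) lower. Vegfa changed by -1.73 in control cells with no call. Of these 20 calls 6, 5, 4 and 2 were kept in the leave-one-out fits, with Cp and Itgal in all of them.

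**Figure D5:**
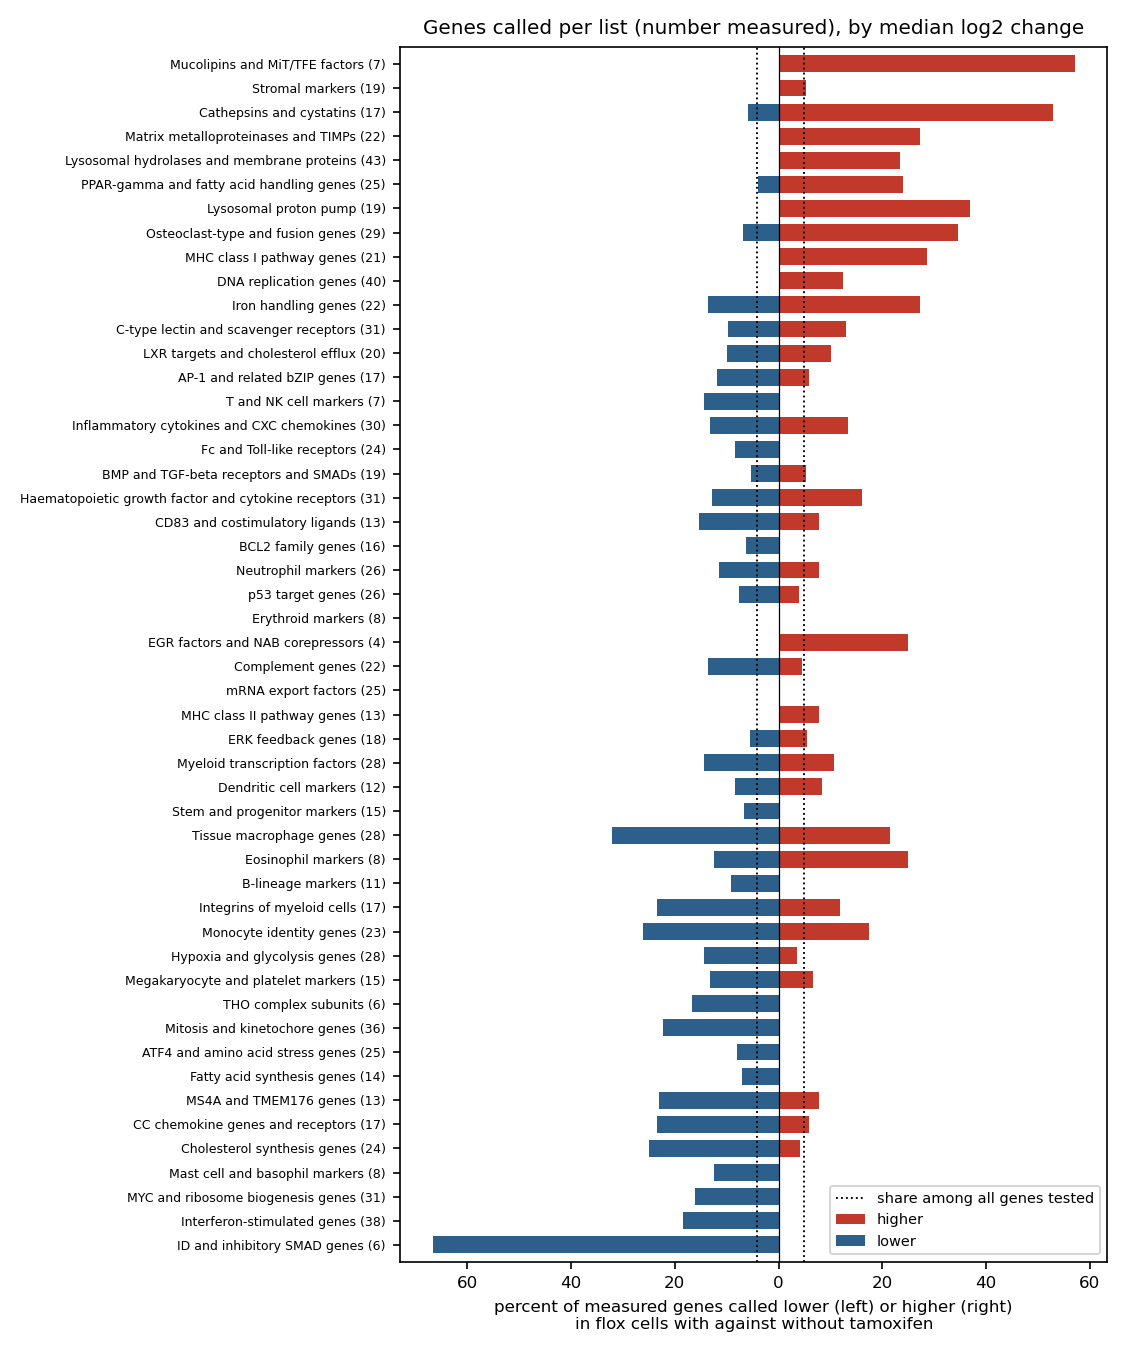
Percent of the measured genes of each of the 50 lists that were called higher (right) or lower (left) with tamoxifen in flox cells, ordered by median change, with the shares of all genes tested (4.85% and 4.16%) as dotted lines. Mucolipin and cathepsin genes have the longest bars to the right, and ID and inhibitory SMAD genes the longest to the left.

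Markers of other cell types were measured for the cells that bone marrow cultures can hold. Of 26 neutrophil markers 2 rose and 3 fell, with a median of -0.01 and a summed day 3 intensity of 164800 and 152100 with tamoxifen, against 169700 and 161400 without it. Fpr2 (-0.67 ± 0.11), Wfdc21 (-0.52 ± 0.09) and Stfa3 (-0.70 ± 0.13) were the 3 lowered members. The list went both ways, with changes from -0.70 to 0.76. Its median ranged from -0.08 to 0.04 in the leave-one-out fits. Among 11 B-lineage, 7 T and NK, 8 erythroid, 15 stem cell and 8 mast cell markers 0 rose, and 1, 1, 0, 1 and 1 fell, such as Cd79b (-1.09 ± 0.11), Klrd1 (at least 1.15-fold lower) and Cd34 (-0.70 ± 0.16). A further probe of Cd34 gave -0.27, and when each gene's probes were averaged 0 of the stem cell markers fell. With lists of 7 to 15 genes, 1 call is not read as a result about a cell type. Of 15 platelet markers 1 rose, Vwf (1.68 ± 0.22), and 2 fell, Ppbp (-1.08 ± 0.25) and Gp9 (-0.81 ± 0.19). Among 8 eosinophil markers Siglecf changed by -1.52 ± 0.18, with a further probe at -0.92, and Ear2 by 0.89 ± 0.15, with Ear1 at least 1.35-fold higher, and among 12 dendritic cell markers 1 rose and 1 fell.

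Of the cell type lists, that of stromal markers set 1 array apart. The summed day 3 intensity was 46390 and 108300 in flox cells with tamoxifen, against 49640 and 37660 without it, so the array with tamoxifen of experiment 2 was more than 2-fold above each of the others. The median change of 19 such genes was 0.00 in experiment 1 and 1.14 in experiment 2, and 1 gene was called, the proteoglycan gene Dcn (1.17 ± 0.26). Dcn had ratios of 1.09 and 1.25 with tamoxifen, against 0.39 and -0.38 without it. Without the array with tamoxifen of experiment 1, 9 stromal genes were called higher with a median of 1.21, and without that of experiment 2, 0 were called higher with a median of -0.15. Without the array of experiment 2 the list medians of the lysosomal hydrolases, the cathepsins and the metalloproteinases were 0.29, 0.67 and 0.36. The part that stromal cells have in the other results was not tested.

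The same drug in control cells, which have the recombinase but no floxed Thoc5, called 0 of 17941 genes in limma (0% of those tested), with 995 at an unadjusted p under 0.05, against 4474 in flox cells. The day 3 channel called 0 as well. The changes of the experiments correlated across genes at r = 0.18 in control cells. Of the 1616 genes called in flox cells 1042 had the same sign in control cells (64.5%, against 54.9% of all genes). The median control change was 0.07 for the raised and -0.06 for the lowered genes.

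The difference between the genotypes, tested directly as an interaction, was called for 203 genes (1.13%), 97 higher (0.541%) and 106 lower (0.591%). Of these 203 genes 195 were also called in flox cells in the same direction. In the day 3 channel alone the difference was called for 592 genes (3.3%), 307 higher (1.71%) and 285 lower (1.59%). For the genes not called here, a difference in response between flox and control cells was not shown. Among the 30 genes with the largest changes 20 passed this test. For Thoc5 the difference was -2.43 ± 0.14 (limma adjusted p = 0.00900), for Mcoln3 3.35 ± 0.23 (limma adjusted p = 0.00900) and for Egr2 2.39 ± 0.22 (limma adjusted p = 0.0184). Id1 (limma adjusted p = 0.153), Ccl12 (0.217) and Il7r (0.0861) did not pass in the ratios. In the day 3 channel Il7r (limma adjusted p = 0.00722) and Id1 (0.0401) passed and Ccl12 (0.145) did not. Smad6 (limma adjusted p = 0.120), Gpr162 (0.166) and Oit3 (0.153) also failed in the ratios and passed in the day 3 channel (0.00643, 0.0401 and 0.0133). Il2ra (limma adjusted p = 0.0563 in the ratios, 0.185 in the day 3 channel), Ch25h (0.471 and 0.243) and Mmp12 (0.283 and 0.0812) passed in neither. Cd83 had ratios of 1.08 and 0.65 in control cells with tamoxifen, against 2.18 and 1.77 in control cells without it, a control change of -1.11 that was not called. Its difference, 4.04 ± 0.22 (limma adjusted p = 0.00900), was larger than its change in flox cells.

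For mitosis genes the medians had opposite signs. The median was 0.55 in control cells with tamoxifen against without it, and -0.25 in flox cells, and 9 of 36 were called for the difference, against 1.13% of all genes. Ube2c had ratios of -0.76 and -0.53 in control cells with tamoxifen, against -1.57 and -1.50 without it, and its difference was -2.02 ± 0.15 (limma adjusted p = 0.00900). Without single flox arrays, in the order above, 23, 0, 0 and 0 genes were called for the difference. Without the control array with tamoxifen of experiment 1 or 2 it was 0 and 0, and without the control array without tamoxifen 280 and 139.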

How the data were processed

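Dual-colour Agilent arrays of 8 samples were analysed, 4 of flox and 4 of control cells. Per the file headers, the deposited files hold spot intensities and log10 ratios of red over green, made with Agilent Feature Extraction 10.7.3.1 on the mm9 design. The authors' deposited value table equals these log10 ratios turned to day 3 over day 0, to within 5e-10, with unit and direction known from that match; 27.1% to 32.1% of the ratios are 0.

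From the mean and background intensities, normexp (offset 50) and loess within arrays gave log2 ratios, turned to day 3 over day 0 by the dye labels. Control spots and outlier flags were left out, spots averaged per probe, and probes well above background on both arrays of a group kept, 22401 of 39429. Each gene is given by its probe of highest mean intensity. limma 3.58.1 (R 4.3.3) fitted 4 group means and the experiment as a block, and Benjamini-Hochberg adjusted p under 0.05 made a call. The labels number the arrays by biological experiment, and deviations of same-numbered arrays correlated at 0.31 to 0.73, which is why the block was kept. The experiment number is also the dye direction, so this correlation cannot tell pairing from dye effects, and the block takes out both. The day 3 channel was fitted in the same way after Aquantile. The fit was also run on simulated data with independent errors on every array. This does not copy the day 0 RNA that real arrays share, so it cannot check that part of the design.

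The members and the 50 gene lists were chosen with earlier results of these data known. Genes named are the 15 with the largest called changes in each direction, and in each list those with the smallest p, THO subunits and a few relatives. Genes with clone or locus names, and some others, are not reported here but stay in the counts. Alternatives are under the closing section.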

Additional observations from a re-analysis of the deposited data

Results flagged for a closer look

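The tamoxifen effect in flox cells minus that in control cells passed the limma test across all genes (adjusted p 0.0090 to 0.0489) for 33 of the genes named here. Each value is on the log2 scale, flox minus control. Above 0 were Cd83 at 4.04, Mcoln3 at 3.35, Fabp4 at 2.65, Egr2 at 2.39, H2-M2 at 2.32, Atp6v0d2 at 2.24, Pianp at 2.13, Fam20c at 2.10, Clec7a at 2.02, Mcoln2 at 1.56, Ctsb at 1.15, Atp6v1a at 1.12, Pparg at 1.01 and Arsb at 0.91. Below 0 were Mtus1 at -2.74, Raver2 at -2.55, Dmwd at -2.45, Thoc5 at -2.43, Nrxn2 at -2.41, Cd209f at -2.40, Klra2 at -1.85, Fcrls at -1.81, Ltb at -1.78, Klf2 at -1.71, Cp at -1.53, Acp5 at -1.52, Itgal at -1.34, Tmem176a at -1.30 and Il1rap at -1.22. The mitosis genes Ube2c at -2.02, Ccnb2 at -1.89, Cdc20 at -1.84 and Aurka at -0.98 were the others.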

How the results depend on the processing

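The fit carries the experiment as a replicate block, and without the replicate block it called 468 genes in flox cells (266 higher, 202 lower) in place of 1616, 1120 in the day 3 channel in place of 2376, and 22 for the difference between genotypes in place of 203. A random block for arrays with a common day 0 sample (correlation 0.326) gave 2902 calls in flox cells and 822 for the difference, and the 4 flox arrays fitted alone called 4638. For the difference, 56 genes were called from Agilent's processed signals, 60 from the deposited value table and 359 after median centring, and with no filter on dim probes the day 3 channel called 1358. Leaving out 1 array gave 214 to 453 calls in flox cells, 430 to 781 in the day 3 channel and 0 to 280 for the difference; these fits have fewer samples, and the lone array of a group is assumed to vary like the others. For the other settings the cause was not tested. The Thoc5 change kept its direction and its call under every alternative run, at -2.43 to -2.10 in the ratios. Its difference between genotypes was -2.48 to -2.38 without 1 array, and lost its call without either control array with tamoxifen (limma adjusted p = 0.113 and 0.126), either flox array without tamoxifen (0.0632 and 0.0569) or the flox array with tamoxifen of experiment 2 (0.0703). Of the 148 other named genes that were called, 91 lost the call without the block and 81 to 104 without 1 flox array. No called value among these results changed sign under the alternatives run. The precision rests on 2 arrays a group, and for 77 called genes 1 group was not well above background.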
